A study of Mus musculus with 4 samples.

Results

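The genes described here are 10 mouse sensors of nucleic acids and the adaptors they signal through: Ddx58, Ifih1, Dhx58, Mavs, Tmem173, Tlr3, Tlr7, Tlr9, Zbp1 and Trex1. They were chosen by name, with earlier results of these data known, were matched by symbol, and are 10 of the 43629 gene identifiers in the count files. Shares over all genes set beside them are thus descriptions and not tests. RNA was sequenced from CD117+ hematopoietic stem and progenitor cells (HSPCs) of C57Bl/6 mice with floxed Chaf1b alleles, 48 h after retroviral transduction. Chaf1b encodes a subunit of CAF-1, the chaperone that places histones on newly copied DNA. The 2 control libraries (MIGR1, genotype Chaf1b (fl/fl)) received the empty MIGR1 retrovirus, and the 2 deleted libraries (dChaf1b, genotype Chaf1b (-/-)) received MIGR1-Cre. Cells of both groups were grown in medium with SCF at 50 ng/mL, IL6 at 20 ng/mL, IL3 at 10 ng/mL and LDL, and were sorted as eGFP+ cells. Both groups therefore carry the retroviral vector, and neither the animal behind a library nor an untransduced library is given by the labels. The comparison asks whether transcripts of these sensors differ between HSPCs with and without Chaf1b.

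Cells recognize foreign or misplaced nucleic acids by receptors in different compartments. In the cytosol, the RNA helicases RIG-I (Ddx58) and MDA5 (Ifih1) bind double-stranded RNA and signal through MAVS on mitochondria, with LGP2 (Dhx58) as a regulator, while cGAS detects DNA and signals through STING (Tmem173). In endosomes, TLR3, TLR7 and TLR9 detect double-stranded RNA, single-stranded RNA and unmethylated CpG DNA. ZBP1 binds left-handed Z-form nucleic acids and can engage RIP kinases, and the nuclease TREX1 degrades cytosolic DNA. These pathways lead to type I interferon, and several of the sensors are themselves interferon-stimulated genes.

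The libraries held between 18468637 and 25409926 counts on genes, and levels are given as CPM, counts scaled per 1e+06 of that total, so that 3 counts correspond to between 0.118 and 0.162 CPM. Chaf1b itself had 80.3 and 57.9 CPM in MIGR1 1 and 2 and 16.1 and 17.9 CPM in dChaf1b 1 and 2, a log2 fold change of -2.01 ± 0.25 (SE; adjusted p = 0.0330 in the quasi-likelihood test of edgeR, by Benjamini-Hochberg over 16500 genes). The library labelled dChaf1b 1 stood apart from the other 3. Its Xist level was 336 CPM, against 1.14 to 1.30 CPM in the others, and 4 Y-linked genes together had 3 counts in it, against 5805 to 7771. Of its uniquely aligned reads, 35.8% fell on no gene and 2.76% on more than 1, against 48.3% and 2.16% in dChaf1b 2, and 42.1% to 42.3% and 2.05% in the controls. The part of these differences in the levels of the dChaf1b libraries was not tested, and each result is given for each dChaf1b library by itself. The HSPC markers Kit, Cd34, Myb, Gata2, Meis1 and Flt3 were all detected in every library. They summed to 894, 858, 636 and 832 CPM in MIGR1 1, MIGR1 2, dChaf1b 1 and dChaf1b 2. They did not move together. Flt3 had 4.66, 5.31, 19.3 and 22.7 CPM (log2 fold change 2.09, adjusted p = 0.0383 in the same test). Myb, the largest part of the sum in the controls, had 475, 492, 298 and 335 CPM (adjusted p = 0.313). The 6 neutrophil markers summed to far more, 48352, 55728, 66149 and 49648 CPM. In such bulk libraries, fewer cells of a type and less RNA per cell cannot be told apart.

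Across the 9 sensors and adaptors with counts, the sizes differed between the 2 dChaf1b libraries. In dChaf1b 1, 6 of the 9 genes lay over 2-fold above the mean of the 2 controls (Ddx58, Ifih1, Dhx58, Tlr3, Tlr7 and Zbp1), where 7.36% of all tested genes did so. In dChaf1b 2, none of the 9 did, where 10.4% of all tested genes did so. The median log2 ratio of the 9 genes to the control mean was 1.29 in dChaf1b 1 and 0.40 in dChaf1b 2, beside -0.17 and 0.07 for all tested genes. In 5 of the 9 genes, Ddx58, Tmem173, Tlr3, Tlr7 and Zbp1, both dChaf1b libraries lay above both controls, where 21.4% of all tested genes showed this. Tlr3, in this set and among the 6 genes above, had only 4, 12, 20 and 11 counts in MIGR1 1, MIGR1 2, dChaf1b 1 and dChaf1b 2. In the fit over all 4 libraries, 0 of the 9 passed 1.5-fold with an adjusted p-value under 0.05, where 0.37% of tested genes passed as higher. Without adjustment, 5 of the 9 (Ddx58, Dhx58, Tmem173, Tlr7 and Zbp1) had a p-value under 0.05 as higher, where 9.15% of tested genes did. DESeq2 called 0 of the 8 for which it gave an adjusted p-value, all but Tlr3, where it called 472 of 16500 genes as higher.

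**Figure D1:**
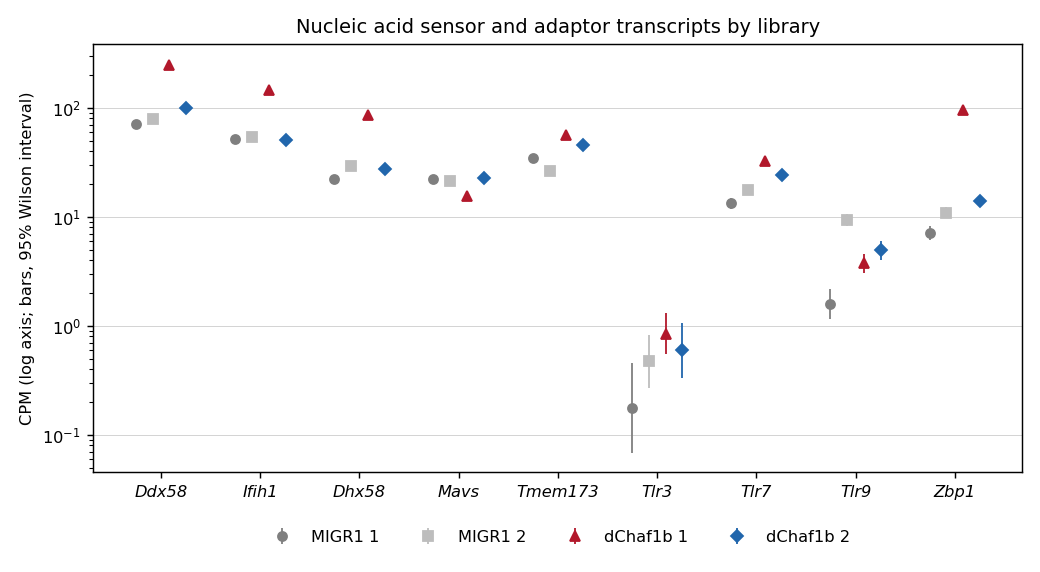
Level of each of the 9 sensor and adaptor genes with counts, in CPM on a log axis, in the 2 MIGR1 libraries (grey circle and square) and the 2 dChaf1b libraries (red triangle and blue diamond), with the 95% Wilson interval for counting error. Ddx58, Ifih1, Dhx58 and Zbp1 in dChaf1b 1 lie apart from the other 3 libraries, Tlr3 lies below 1 CPM in all 4, and Tlr9 spans 1.58 to 9.37 CPM between the 2 controls.

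The 3 cytosolic RNA helicases had their highest level in dChaf1b 1. Ddx58 (ENSMUSG00000040296, chromosome 4, 40150806 to 40186861 on the minus strand of NCBIM37), which encodes RIG-I, had 71.3 CPM in MIGR1 1, 79.1 in MIGR1 2, 248 in dChaf1b 1 and 99.5 in dChaf1b 2. Both dChaf1b libraries lay above both controls, by 3.30-fold and 1.32-fold over the control mean. The controls themselves differed by 1.11-fold, so that dChaf1b 2 exceeded their mean by more than they differed from each other. The fitted log2 fold change was 1.28 ± 0.43 (SE, adjusted p = 0.285), and it was 0.33 without dChaf1b 1. In the Ddx58 exons, 2.72% of 31-base words have a second copy in the genome.

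Ifih1 (ENSMUSG00000026896, chromosome 2, 62433850 to 62484312, minus strand), which encodes the MDA5 receptor for long double-stranded RNA, had 51.8 and 54.4 CPM in the controls, 144 CPM in dChaf1b 1 and 51.0 CPM in dChaf1b 2. Only dChaf1b 1 was above the controls, by 2.71-fold, and dChaf1b 2 was just below both of them. The log2 fold change over all 4 libraries was 0.95 ± 0.47 (SE, adjusted p = 0.481), and it was -0.13 without dChaf1b 1. Dhx58 (ENSMUSG00000017830, chromosome 11, 100556018 to 100565585, minus strand), which encodes LGP2, a helicase that lacks the signalling domains of the other two, had 22.2, 28.97, 85.3 and 27.2 CPM in MIGR1 1, MIGR1 2, dChaf1b 1 and dChaf1b 2. Here dChaf1b 1 stood 3.33-fold above the control mean, and dChaf1b 2 lay between the controls. Its log2 fold change was 1.22 ± 0.51 (SE, adjusted p = 0.395), and it was 0.015 without dChaf1b 1. In NCBIM37, 4.09% of its exonic bases overlap Gm11547 on the opposite strand.

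The promoter table of RefSeq (GRCm38.p6), with 250 bases before and 50 after each start, held 6 of the 10 genes, namely Ddx58, Ifih1, Mavs, Tlr3, Tlr9 and Trex1. The interferon-stimulated response element, bound by factors that act downstream of interferon, was searched as GAAANNGAAA on both strands. In the 250 bases before the start, 0 of the 6 genes held it, where 3.46% of all 27025 genes of the table did. In the whole 300 bases, a window added after seeing the data, 2 of the 6 did (3.99% of all genes), and both matches lay just after the start. The pieces below are shown because they are the only such matches among the 6 genes, with 3 effector genes of the interferon response for comparison. Each is 30 bases on the strand of the gene, 5′ to 3′, with the match in capitals.
Ddx58 (chr4:40239804-40239833, GRCm38.p6, minus strand): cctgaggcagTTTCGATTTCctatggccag
Ifih1 (chr2:62646206-62646235, GRCm38.p6, minus strand): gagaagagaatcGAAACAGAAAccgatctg
Oas3 (chr5:120777715-120777744, GRCm38.p6, minus strand): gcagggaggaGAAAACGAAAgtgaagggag
Isg15 (chr4:156200865-156200894, GRCm38.p6, minus strand): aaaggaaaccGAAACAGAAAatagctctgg
Ifit1 (chr19:34640794-34640823, GRCm38.p6, plus strand): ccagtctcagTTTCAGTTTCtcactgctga
The match in Ddx58 covers bases 3 to 12 counted from 1 at the start and reads on the opposite strand, and that in Ifih1 covers bases 33 to 42. Those in Oas3, Isg15 and Ifit1 lie before the start, at -75 to -66, -66 to -57 and -85 to -76. The Isg15 match shown and that in Ifih1 have the same 10 letters. A second Isg15 match, at -78 to -69, has other letters and is not shown, nor is a second Ifit1 match at -104 to -95. The comparison genes all hold a match in 250 bases, as did 6 of the 10 effector genes with a promoter in the table. The other interferon motif, the gamma-activated site searched as TTCNNNGAA, was found in 0 of the 6 genes in 250 bases, where 8.13% of all genes of the table had it. A match is a description of the letters and not of binding, and the files hold no measurement of a factor at these starts.

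The adaptors did not share the pattern of the helicases. Mavs (ENSMUSG00000037523, chromosome 2, 131059799 to 131073761, plus strand), the mitochondrial adaptor to which RIG-I and MDA5 bind, had 22.0 CPM in MIGR1 1, 21.4 in MIGR1 2, 15.6 in dChaf1b 1 and 22.9 in dChaf1b 2. Its dChaf1b 1 value was the lowest of the 4 and its dChaf1b 2 value the highest, 0.718 and 1.05 times the control mean. The log2 fold change was -0.17 ± 0.25 (SE, adjusted p = 0.838).

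Tmem173 (ENSMUSG00000024349, chromosome 18, 35893332 to 35900208, minus strand), which encodes the adaptor STING, had 34.4 and 26.5 CPM in the controls and 55.7 and 45.9 CPM in dChaf1b 1 and dChaf1b 2. The groups did not overlap, and the 2 dChaf1b libraries were alike in size, 1.83-fold and 1.51-fold above the control mean, beside a 1.30-fold difference between the controls. Its log2 fold change was 0.77 ± 0.26 (SE, adjusted p = 0.276), and it was 0.52 without dChaf1b 1 and 1.00 without dChaf1b 2. In its exons, 2.23% of 31-base words have a second copy in the genome. Mb21d1, which encodes the DNA sensor cGAS that makes the ligand of STING, had 40.5, 27.8, 53.7 and 37.4 CPM in the same order of libraries. Its dChaf1b 2 value lay between the controls, and its adjusted p was 0.611.

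Of the 3 endosomal receptors, Tlr7 and Tlr3 had both dChaf1b libraries above both controls, Tlr3 at few counts, and Tlr9 did not. Tlr7 (ENSMUSG00000044583, chromosome X, 163742861 to 163768490, minus strand), the receptor for single-stranded RNA, had 13.3 CPM in MIGR1 1, 17.6 in MIGR1 2, 32.3 in dChaf1b 1 and 24.1 in dChaf1b 2. Both dChaf1b libraries lay above both controls, by 2.09-fold and 1.56-fold over their mean. The log2 fold change was 0.91 ± 0.29 (SE, adjusted p = 0.262), and it was 0.57 without dChaf1b 1. Tlr7 is X-linked, and dChaf1b 1 is the library with Xist, whose part in the Tlr7 level was not tested.

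Tlr3 (ENSMUSG00000031639, chromosome 8, 46481019 to 46495962, minus strand), the receptor for double-stranded RNA, was near the limit of detection. It had 4 counts in MIGR1 1, 12 in MIGR1 2, 20 in dChaf1b 1 and 11 in dChaf1b 2, which are 0.176, 0.472, 0.850 and 0.596 CPM. The 95% Wilson intervals of MIGR1 2 (0.270 to 0.826 CPM), dChaf1b 1 (0.550 to 1.31 CPM) and dChaf1b 2 (0.333 to 1.07 CPM) overlap. That of MIGR1 1 (0.068 to 0.452 CPM) lies below that of dChaf1b 1 and overlaps the others. These intervals cover counting error only, and their overlap is not a test of a difference. The log2 fold change was 1.18 ± 0.73 (SE, adjusted p = 0.575).

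Tlr9 (ENSMUSG00000045322, chromosome 9, 106124929 to 106129207, plus strand), the receptor for CpG DNA, differed most between the controls among the 9 genes. It had 1.58 CPM in MIGR1 1, 9.37 in MIGR1 2, 3.74 in dChaf1b 1 and 4.93 in dChaf1b 2, and both dChaf1b libraries thus lay between the controls, which differed by 5.92-fold. The log2 fold change was -0.32 ± 0.71 (SE, adjusted p = 0.903). It was 1.45 without MIGR1 2 and -1.09 without MIGR1 1, so the sign rested on which control was used. Csf1r, which encodes the receptor of the macrophage growth factor, had 59.5, 158, 98.6 and 89.8 CPM in MIGR1 1, MIGR1 2, dChaf1b 1 and dChaf1b 2. It was highest in MIGR1 2 and lowest in MIGR1 1, as Tlr9 was. The 6 monocyte and macrophage markers summed to 779, 1107, 1787 and 881 CPM, and the 6 conventional dendritic cell markers to 36.1, 187, 260 and 117 CPM, both highest in dChaf1b 1. Ly6c2 made up 633, 778, 1496 and 620 CPM of the former sum and H2-Aa 22.96, 171, 229 and 86.9 CPM of the latter, while the dendritic cell markers Zbtb46, Xcr1 and Clec9a were highest in dChaf1b 2, at 9.48, 3.74 and 1.08 CPM. The part of such cells in the Tlr9, Tlr7 and helicase levels was not tested. Siglech, a defining marker of the plasmacytoid dendritic cells that express Tlr7 and Tlr9 strongly, had 18, 5, 38 and 27 counts, at most 1.61 CPM.

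**Figure D2:**
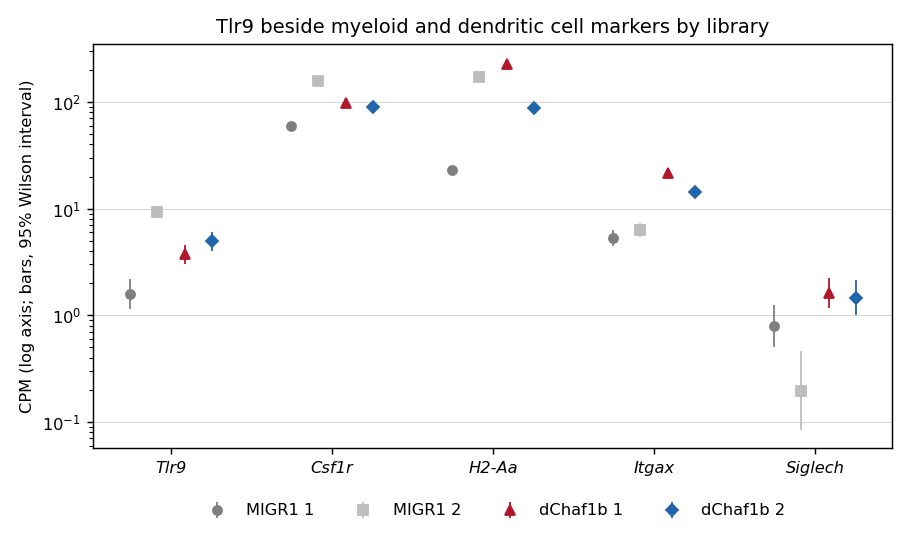
Levels of Tlr9, of the macrophage gene Csf1r, and of the dendritic cell genes H2-Aa, Itgax and Siglech, in CPM on a log axis with 95% Wilson intervals, by library (symbols as named in the legend). Tlr9 and Csf1r are each highest in MIGR1 2 and lowest in MIGR1 1, whereas H2-Aa and Itgax are highest in dChaf1b 1 and the intervals of Siglech in the 2 dChaf1b libraries overlap.

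Zbp1 (ENSMUSG00000027514, chromosome 2, 173032113 to 173044424, minus strand), the sensor of Z-form nucleic acids, had the largest ratio of the 9 genes in dChaf1b 1. Its level was 7.13 CPM in MIGR1 1, 10.9 in MIGR1 2, 94.4 in dChaf1b 1 and 13.9 in dChaf1b 2. The dChaf1b 1 library lay 10.5-fold above the control mean and 6.79-fold above dChaf1b 2. The dChaf1b 2 library also lay above both controls, 1.54-fold over their mean, about as far as the controls differed from each other (1.52-fold). The log2 fold change was 2.69 ± 0.80 (SE, adjusted p = 0.227), and it was 0.55 without dChaf1b 1.

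The calls of the helicases and Zbp1 depended on the test and on the libraries. Zbp1 was the only one of the 9 called by edgeR's exact test (3.25% of tested genes called higher) and by its likelihood ratio test (3.53%), with adjusted p-values of 0.0290 and 0.0235, in a range over all 13 alternatives from 2.74e-16 to 0.582. With no filter on low counts, Ddx58, Ifih1, Dhx58 and Zbp1 were called, 4 of 9 where 2.57% of 31399 genes were. With dChaf1b 1 alone against the controls, the same 4 genes were called, where 1.35% of tested genes were, a fit that assumes that the lone library varies like the controls. Against MIGR1 2 alone, Zbp1 was called (1.73% of tested genes), and against MIGR1 1 alone, Dhx58 and Zbp1 were (2.05%). Without dChaf1b 1, the log2 fold changes of Ddx58, Ifih1, Dhx58 and Zbp1 were 0.33, -0.13, 0.015 and 0.55.

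Trex1 (ENSMUSG00000049734, chromosome 9, 108960447 to 108962852, minus strand) was listed at 0 in all 4 libraries. Of its exonic bases, 100% also belong to Atrip on the same strand in NCBIM37, and HTSeq-count in its default modes leaves out reads that fall on more than 1 gene. A 0 here is thus no measure of the Trex1 transcript, and the gene is not analysed further. Atrip, a partner of the checkpoint kinase ATR, had 27.6, 24.6, 23.3 and 26.04 CPM.

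**Figure D3:**
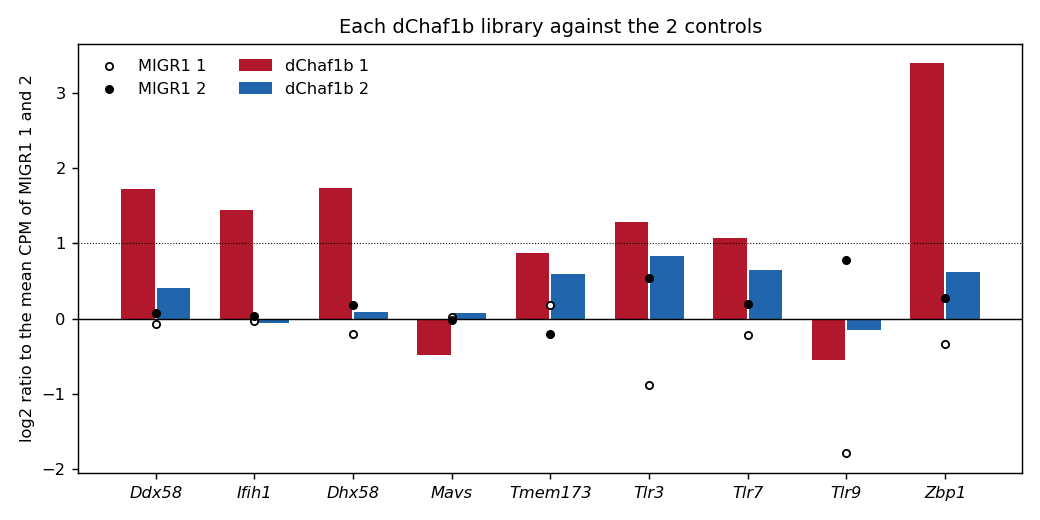
Log2 ratio of each dChaf1b library to the mean CPM of the 2 controls, for the 9 genes with counts (bars, red for dChaf1b 1 and blue for dChaf1b 2), with the position of each control against the same mean (open circle MIGR1 1, filled circle MIGR1 2) and a dotted line at 2-fold. The red bars of 6 genes pass the line and no blue bar does, and for Tlr9 both bars lie between the 2 controls.

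Per length of the annotated exons (RPKM, the CPM per kilobase of exon), the order of the levels in MIGR1 2 was Tmem173, Ddx58, Ifih1, Dhx58, Mavs, Tlr7, Zbp1, Tlr9 and Tlr3, at 11.5, 11.2, 9.85, 8.39, 6.40, 4.31, 3.08, 2.699 and 0.107 RPKM. In MIGR1 1 the same genes had 14.9, 10.1, 9.38, 6.42, 6.59, 3.25, 2.02, 0.456 and 0.0400 RPKM. Over the 2 controls, the ranges of Dhx58 and Mavs overlapped, as did those of Zbp1 and Tlr9, so that these neighbours did not differ beyond their spread. The order in dChaf1b 2 was that of MIGR1 2, led by Tmem173 at 19.9 RPKM and Ddx58 at 14.1 RPKM. In dChaf1b 1 it was Ddx58 (35.2 RPKM), Zbp1 (26.8), Ifih1 (26.1), Dhx58 (24.7) and Tmem173 (24.2), with Tlr7 at 7.92 RPKM above Mavs at 4.66 RPKM. Zbp1 thus ranked just below Ddx58 in that library and below Tlr7 in the other 3.

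The kinases and factors that the sensors signal through did not share the ratios of the helicases. Of 12 genes of RIG-I-like receptor and DNA sensor signalling, 0 passed the test. In dChaf1b 1, 1 lay over 2-fold above the control mean, where 7.36% of all tested genes did. In dChaf1b 2, 0 did, where 10.4% of all tested genes did. The medians were -0.11 and -0.09 on the log2 scale. The 1 gene was Irf7, the interferon-stimulated factor that drives interferon genes, at 20.4, 29.3, 276 and 35.8 CPM in MIGR1 1, MIGR1 2, dChaf1b 1 and dChaf1b 2. Both dChaf1b libraries lay above both controls, with log2 ratios of 3.47 and 0.53 (adjusted p = 0.229). Irf3, the factor that the kinase TBK1 activates, had 57.6, 49.4, 49.4 and 48.7 CPM, and Tbk1 had 104, 101, 92.1 and 87.1 CPM.

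Of 11 genes of endosomal TLR signalling, 0 passed the test. Of all tested genes, 7.36% lay over 2-fold above the control mean in dChaf1b 1 and 10.4% in dChaf1b 2. Of the 11, 1 did so, in both dChaf1b libraries. This was Tlr13, a receptor for bacterial ribosomal RNA encoded on the X chromosome, at 37.3, 40.7, 118 and 94.8 CPM (log2 ratios 1.60 and 1.28, adjusted p = 0.0639). Tlr8, another X-linked member of the family, had 12.2, 23.97, 23.8 and 29.2 CPM, with dChaf1b 1 between the controls. Unc93b1, the chaperone that carries these receptors to endosomes, had 162, 212, 265 and 188 CPM, and Myd88, the adaptor of TLR7 and TLR9, had 69.7, 51.3, 94.3 and 78.9 CPM. Of the 5 receptors for bacterial surface ligands, Tlr2 had log2 ratios of 1.21 and 0.96 and Tlr5 of 0.62 and 1.74, and 0 of the 5 passed the test.

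The antiviral effectors, which bind or cut foreign RNA once induced by interferon, had the same split between the dChaf1b libraries as Zbp1. Of 12 genes, 0 passed the test. In dChaf1b 1, 10 lay over 2-fold above the control mean (7.36% of all tested genes), with a median log2 ratio of 3.83. In dChaf1b 2, 1 did (10.4% of all tested genes), with a median of 0.51. Oas3, which makes the second messenger that activates RNase L, had 33.5, 32.5, 315 and 57.3 CPM. Ifit1, which binds RNA caps that lack host methylation, had 5.41, 6.41, 163 and 4.06 CPM. Oas3 was thus higher than both controls in both dChaf1b libraries, whereas Ifit1 in dChaf1b 2 was below both controls. Ifit3 had 74.4 CPM in dChaf1b 1 and 0.596 CPM in dChaf1b 2, against 1.495 and 1.57 CPM in the controls, but 62.8% of the 31-base words in its exons have a second copy in the genome, which makes its counts uncertain.

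Among 11 interferon receptors and factors, 0 passed the test. In dChaf1b 1, 5 lay over 2-fold above the control mean (7.36% of all tested genes), Stat2, Irf9, Socs1 and Usp18 among them. In dChaf1b 2, 0 did (10.4% of all tested genes). Stat2, a subunit of the factor that type I interferon activates, had 49.8, 37.0, 100.4 and 57.1 CPM. Usp18, which restrains interferon receptor signalling, had 6.95, 7.40, 94.6 and 9.91 CPM. Both followed the helicases in standing apart in dChaf1b 1. Ifnar1 and Ifnar2, the receptor chains of type I interferon, had log2 ratios of 0.23 and 0.70 in dChaf1b 1 and of 0.35 and 0.54 in dChaf1b 2.

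The interferon genes themselves were at or near 0. Of 10 listed, 8 were matched in the count files. Ifnb1 had 0, 0, 0 and 1 count, Ifna2 had 2, 0, 0 and 0, Ifna4 had 0, 0, 1 and 0, and Ifng, Ifne, Il28a and Il28b had 0 in all 4 libraries, which allows up to 0.162 CPM in the shallowest. Ifnk had 13, 4, 4 and 27 counts, lowest in MIGR1 2 and dChaf1b 1.

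**Figure D4:**
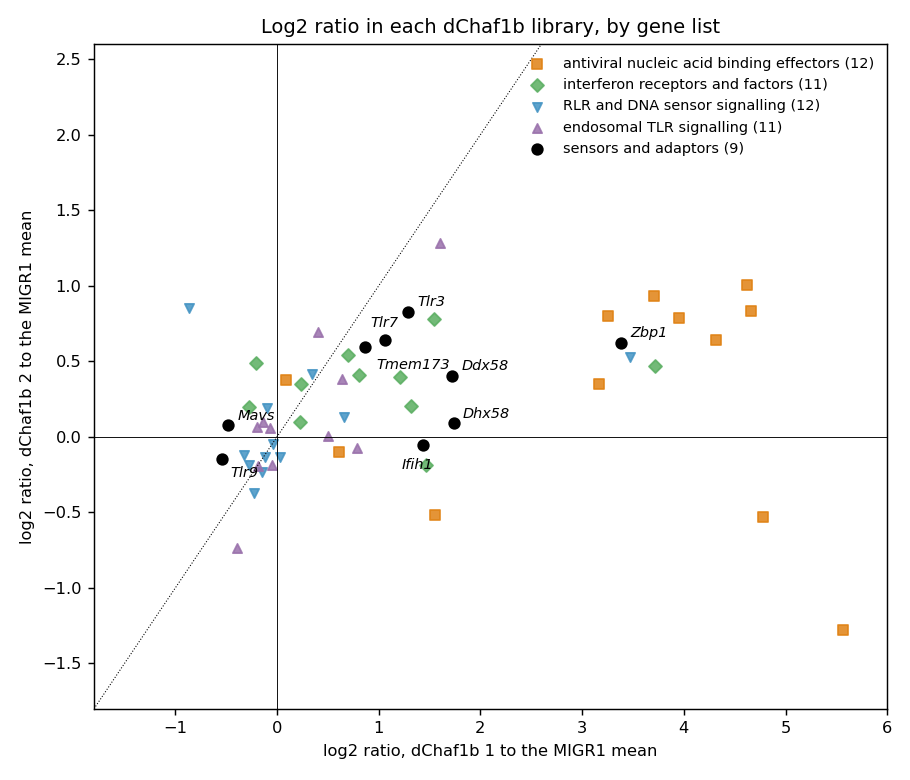
Log2 ratio to the control mean in dChaf1b 1 (horizontal) and dChaf1b 2 (vertical) for the 9 sensors and adaptors (black, labelled) and 4 pathway lists, with their numbers of genes in the legend. The dotted line marks equal ratios. The effector genes span 0.09 to 5.56 on the horizontal axis and -1.28 to 1.00 on the vertical axis, Zbp1 lies at 3.39 and 0.62, while Tlr7, Tmem173 and Tlr3 lie nearer to the line. The axes share control libraries.

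Genes that limit the response to the cell's own nucleic acids, and the kinases that act with ZBP1, complete the set. Of 9 genes that degrade, edit or restrict self nucleic acids, 0 passed the test. In dChaf1b 1, 3 lay over 2-fold above the control mean (7.36% of all tested genes), and in dChaf1b 2, 1 did (10.4%). Adar, the RNA-editing enzyme, had 97.4, 83.4, 207 and 103 CPM, and Samhd1, which lowers the nucleotide pool, had 164, 192, 368 and 297 CPM, so that in both genes both dChaf1b libraries lay above both controls. This order held for 4 of the 9 genes and for 21.4% of all tested genes. The third gene over 2-fold in dChaf1b 1 was Dnase1l3, also the 1 gene in dChaf1b 2, at 10, 7, 31 and 26 counts. Of the 5 genes of the ZBP1 and RIP kinase pathway, 0 passed 2-fold in either library, and Ripk3, the kinase that ZBP1 recruits, had 76.9, 62.9, 78.9 and 85.01 CPM, while its substrate Mlkl had 70.5, 53.8, 85.05 and 69.5 CPM.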

How the data were processed

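Total RNA libraries were depleted of ribosomal RNA and prepared with a stranded kit, per the labels. The authors aligned reads to mm9 with STAR and obtained read counts with HTSeq-count, deposited without normalization as 1 file per library. The annotation release and the strand setting are not given in the sources used here. Per file, 5 summary lines were left out of totals and tests. Reads on no gene were 35.8% to 48.3%, and on more than 1 gene 2.05% to 2.76%, of uniquely aligned reads. Names, coordinates and exon lengths come from NCBIM37, the Ensembl name of mm9, which holds 33068 of the 43629 identifiers.

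Counts were filtered by edgeR 4.0.16 (minimum count 10, 16500 genes kept), scaled by TMM and compared by glmQLFit and glmQLFTest, with no covariate, in R 4.3.3. A call needed a change of 1.5-fold and a p-value under 0.05 after Benjamini-Hochberg adjustment. Each dChaf1b library was also set against the mean CPM of the 2 controls, with 1 count added, with no test. TMM moved the median log2 ratio of all tested genes in dChaf1b 1 from -0.17 to -0.04. DESeq2 1.42.0 and the other alternatives are treated in the closing section. The fit was tested on simulated counts. Wilson intervals (95%) and the floor of 3 counts cover counting error only, since reads have no molecular identifiers. The labels do not say whether the 2 libraries of a group came from separate animals, so p-values measure the spread between these libraries, which in MIGR1 may be technical. The 2 dChaf1b libraries differ in Xist and Y-linked counts, so their spread is not purely technical.

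The members and the gene lists were chosen with earlier results of these data known. All 10 members are named with every value. Of the lists, the text names genes past the test, genes past 2-fold in a dChaf1b library, and ligands, adaptors or kinases of the members. Marker lists were read as summed levels. A sum led by 1 gene is not a level of that cell type. Tcf4 made up 47.02, 50.5, 41.3 and 53.7 CPM of the plasmacytoid sum, and Nkg7 79.4, 96.6, 80.6 and 63.7 CPM of the T and NK cell sum, in which Cd3e, Ncr1, Trac and Klrb1c were under 1 CPM in every library. In MIGR1 1, MIGR1 2, dChaf1b 1 and dChaf1b 2, the sums were 49.5, 54.0, 47.8 and 58.7 CPM for plasmacytoid dendritic cells, 17.5, 21.4, 33.2 and 28.1 CPM for B cells, 81.9, 98.6, 83.1 and 66.2 CPM for T and NK cells, 48352, 55728, 66149 and 49648 CPM for neutrophils, and 1022, 667, 832 and 880 CPM for mast cells and basophils.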

Additional observations from a re-analysis of the deposited data

How the results depend on the processing

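Of the 9 tested members, 0 were called by the quasi-likelihood test, and also 0 with library size or the size factors of DESeq2 in place of TMM, with at least 10 counts in every library (which leaves out Tlr3), with no fold threshold, with DESeq2, and with edgeR's bias-adjusted quasi-likelihood method, the last chosen after seeing the data. The count was 4 with no low-count filter and 1 with the exact test and with the likelihood ratio test. Over fits that leave out 1 library each, it ran from 0 to 4. It was 0 without dChaf1b 1, 4 without dChaf1b 2, 1 without MIGR1 1 and 2 without MIGR1 2. The number of all genes called higher moved from 61 to 14 with the replicate block, 27 with the size factors of DESeq2, 30 with library size, 3 with 10 counts in every library, 808 with no filter, 537 with the exact test, 583 with the likelihood ratio test and 472 with DESeq2. Without 1 library, it ran from 110 to 339. Over these fits, the log2 fold change ran from -0.13 to 1.57 for Ifih1, from -0.35 to 0.0014 for Mavs and from -1.09 to 1.45 for Tlr9. The sign turned for Ifih1 and Mavs without dChaf1b 1, and for Tlr9 without MIGR1 2 and with the replicate block (0.13). The cause was not tested. Members over 2-fold in dChaf1b 1 ranged from 5 to 7. In dChaf1b 2 the number was 0, except for 2 without MIGR1 2, when it was set against MIGR1 1 alone. The replicate block called 0 members, and the labels give only shared numbers: the deviations of same-numbered libraries correlated at 0.0101 across genes. Depth limits Tlr3, and the overlap with Atrip leaves Trex1 unmeasured.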

Other observations

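A further list of 28 genes that sense or bind nucleic acids, or regulate such sensors, was set up after the values of the members had been seen. Of these, 0 passed the quasi-likelihood test, and 8 had an unadjusted p-value under 0.05 as higher (9.15% of all tested genes) and 1, Xrcc6, as lower (log2 fold change -0.58). In dChaf1b 1, 13 lay over 2-fold above the control mean (7.36% of all tested genes), and in dChaf1b 2, 1 did (10.4%). Ddx60, a helicase linked to RIG-I, had 14.9, 14.6, 157 and 28.6 CPM in MIGR1 1, MIGR1 2, dChaf1b 1 and dChaf1b 2. Parp12, an interferon-stimulated enzyme, had 12.6, 15.8, 106 and 22.8 CPM, and Trim30a had 44.95, 48.3, 233 and 65.8 CPM. In each of these 3 genes, both dChaf1b libraries lay above both controls, and dChaf1b 1 lay furthest from them. Of the 28 genes, 11 had both dChaf1b libraries above both controls, where 21.4% of all tested genes did.

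Nlrp3, a cytosolic sensor that forms an inflammasome, had a different pattern, at 31.1, 65.4, 97.03 and 107 CPM, and was the 1 gene of the list over 2-fold above the control mean in dChaf1b 2 (adjusted p = 0.229). Pyhin1, of the family of DNA-binding PYHIN proteins, had 1.98, 14.9, 34.9 and 1.84 CPM, so that MIGR1 1 and dChaf1b 2 were low and the other 2 libraries high. Mnda had 3, 43, 112 and 1 counts in the same order, but 87.4% of the 31-base words in its exons have a second copy in the genome, and its counts are uncertain. Dhx9, a nuclear helicase that unwinds RNA and DNA, went the other way in dChaf1b 1, at 339, 271, 163 and 371 CPM.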
